A study of Mus musculus with 21 samples.

Results

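Transcripts of 50 genes of the skeletal muscle fibre were measured by RNA sequencing in 12 mammary tumours of mice. The genes encode fast and slow sarcomere proteins, shared sarcomere scaffolds, calcium-handling proteins and muscle enzymes. They were taken by symbol from a list, and all 50 were among the 19241 genes of the deposited tumour tables. The list was chosen by the measured difference between active and sedentary tumours at week 12, with those values known, so the week 12 values below are a description and support nothing. Of the 50 genes, 14 were grouped as fast fibre genes, 8 as slow fibre genes, 14 as sarcomere genes of both fibre types, 7 as calcium handling and membrane genes, and 7 as genes of metabolism and other roles.

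Each tumour came from an MMTV-PyMT mouse. This strain carries the polyoma virus middle T oncogene behind the mammary tumour virus promoter, which drives it in mammary epithelium, and all 4 groups share it. The mice were Sedentary or Physically active, and tumours were sampled at Week 12 or Week 18, with 3 libraries in each of the 4 groups. The labels call the libraries biological replicates. They do not say how the mice were made active, whether the week is the animals' age, how the tumours were dissected or whether animals were pooled, so a p-value measures only the spread between these libraries. The comparison asked how tumours of active and sedentary mice differ, and the blood stem cell libraries of the study were not analysed here.

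Skeletal muscle contracts when calcium, released from the sarcoplasmic reticulum through the ryanodine receptor, binds troponin on the thin filament and lets myosin heads pull on actin. Fast and slow fibres build this machine from different isoforms. Fast fibres use the myosin heavy chains Myh4, Myh1 and Myh2 with fast troponins and the calcium pump Atp2a1, and slow fibres use Myh7 with its own light chains and troponins. Most mouse limb and trunk muscles are fast, and Myh4 marks the fastest fibres. In bulk tissue, fewer cells of a type and less RNA per cell cannot be told apart.

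The deposited values are read counts divided by a factor per library, called normalized counts here, and the factors put all 12 libraries on a common scale. Library totals ran from 20838963 to 28973775 reads. All 10 luminal epithelial markers used to check the tissue label were listed, and their summed level ran from 66370 to 390794 normalized counts. The lowest sums were in sedentary replicate 1 of week 18 (66370) and in active replicate 3 of week 12 (99749). The latter library also stood apart in T cell genes, with 12244 normalized counts over 8 genes against 208 to 442 in the others, and in adipocyte genes, with 539681 over 12 genes against at most 112708.

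The muscle genes were most abundant in the sedentary tumours of week 12. Their summed normalized count was 217855, 101534 and 156040 in replicates 1, 2 and 3 of that group, which is 0.871% (95% exact binomial interval 0.867 to 0.875), 0.434% and 0.647% of all reads. In active tumours of week 12 the sums were 3341, 1085 and 2424. At week 18 the sums were 1379, 22997 and 10942 in sedentary tumours and 4241, 30039 and 20052 in active tumours. The lowest sedentary library of week 12 stood above each of the other libraries, and the replicates numbered 1 at week 18 were low in both arms. These intervals cover the counting of reads within a library and not the spread between tumours. The reads carried no molecular identifiers, so the intervals are for reads and not for molecules.

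**Figure D1:**
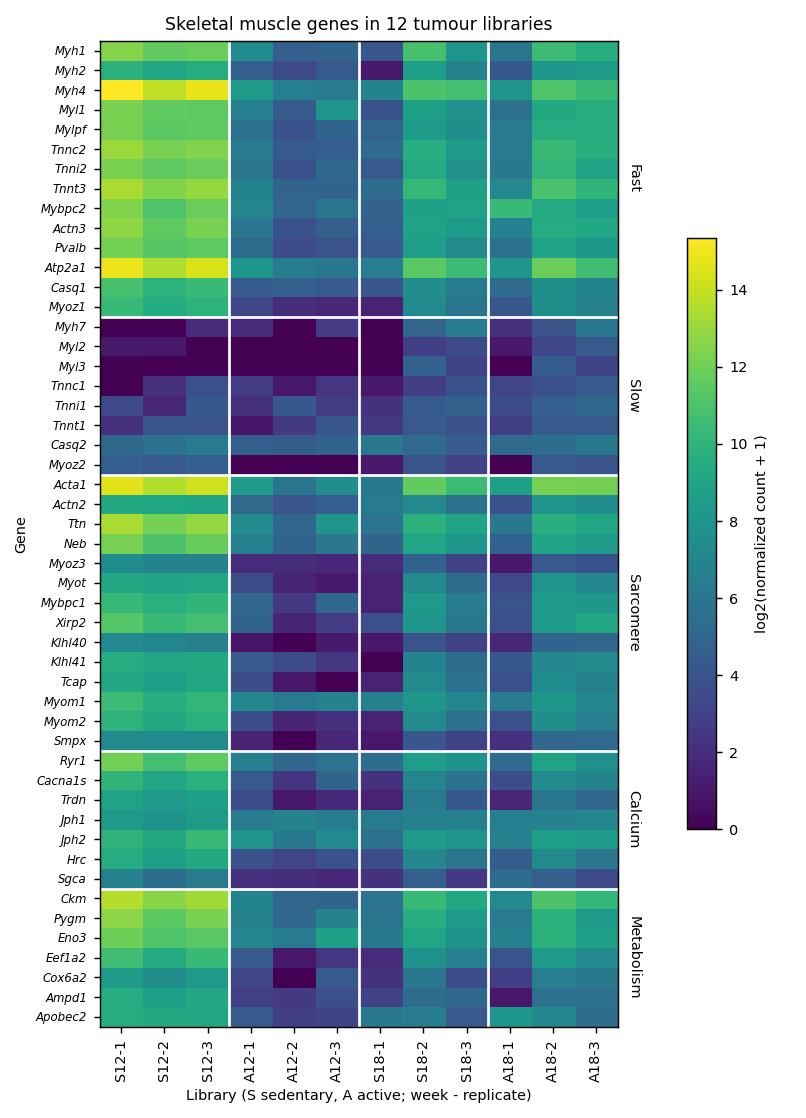
Level of each of the 50 genes (rows, ordered by role) in each of the 12 tumour libraries (columns, by group and replicate), as log2(normalized count + 1) on the colour scale. The 3 sedentary libraries of week 12 hold the 3 highest values for 42 of the 50 genes, and the exceptions are the 8 slow fibre genes. The share of all genes with that order was not computed.

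At week 12, 42 of the 50 genes had the 3 sedentary libraries of that week as their 3 highest of all 12. These were all 14 fast, 14 sarcomere, 7 calcium and 7 metabolism genes, and 0 of the 8 slow fibre genes. The share of all genes with that order was not computed. By a looser rule, 915 of the 19162 genes tested had every active library of week 12 below every sedentary one. Among the 48 muscle genes tested, which were chosen by this contrast, that count was 44. In a limma fit over all 19162 genes that passed the filter on low values, 0.511% were called lower in active tumours at an adjusted p under 0.05 and 0.517% in either direction. The fit called 33 of the 48 muscle genes that passed the filter, and 0 with the replicate number as a block. It called 4, 9 and 2 without sedentary replicate 1, 2 or 3, and 11 without active replicate 3. Nothing is read from these calls, because the genes were chosen by the same contrast. The median difference over those 48 genes was −5.88 on the log2(normalized count + 1) scale, beside 0.01 over all genes tested.

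The fast motor proteins were among the most abundant of the set. Myh4, the heavy chain of the fastest fibres (GRCm38, chr11:67238029-67260446, plus strand), had normalized counts of 41654, 15290 and 29456 in sedentary tumours of week 12 and of 334, 98.9 and 79.2 in active ones. The group means were 28800 ± 13194 (SD, n = 3) and 171 ± 142 (SD, n = 3), a ratio of 169. The groups did not overlap. At week 18 Myh4 had 122, 2087 and 1704 in sedentary and 240, 2202 and 1323 in active tumours, so the ranges of the 2 arms overlapped almost wholly. Replicate 1 was the lowest of its group in both arms.

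Myh1 and Myh2, the other adult fast heavy chains, are neighbours of Myh4 on chromosome 11 (chr11:67200052-67224575 and chr11:67171027-67197517). Myh1 had normalized counts of 5979, 3244 and 3804 in sedentary and 174, 24.7 and 30.1 in active tumours of week 12. At week 18 it had 17.2, 1895 and 266 in sedentary and 58.3, 1470 and 790 in active tumours. Sedentary replicate 2 of week 18 stood above the rest of that week, and both replicates numbered 1 lay below 100. Myh2 had 936, 531 and 714 in sedentary and 22.8, 10.3 and 19.0 in active tumours of week 12. Its week 18 values were 0.957, 385 and 116 in sedentary and 17.7, 270 and 360 in active tumours, again with the arms overlapping. The transcripts of the 3 genes are close copies. Of the 50-base windows of the Myh1 transcript, 19.7% also occurred in Myh2 and 10.5% in Myh4, so reads could have been split or lost between them.

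Fast fibres clear calcium with Atp2a1, the pump of the sarcoplasmic reticulum (chr7:126445858-126463108). Its normalized counts were 30398, 11658 and 21436 in sedentary and 266, 84.5 and 64.7 in active tumours of week 12, and 93.8, 2795 and 1395 in sedentary and 267, 3821 and 1580 in active tumours of week 18. The ratio of the week 12 means, 21164 ± 9373 and 138 ± 111 (SD, n = 3 each), was 153. At week 18 the highest active library stood above the highest sedentary one, and the 2 arms overlapped.

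The fast troponins followed the same order of libraries. Tnnt3, the fast troponin T that ties troponin to tropomyosin (chr7:142498836-142516009), had normalized counts of 10882, 5523 and 7855 in sedentary and 118, 28.8 and 29.0 in active tumours of week 12. At week 18 Tnnt3 had 41.2, 1195 and 436 in sedentary and 147, 1985 and 1058 in active tumours. In each replicate number of week 18 the active library was the higher, while the arms still overlapped. Tnnc2, the fast troponin C that binds calcium (chr2:164777161-164779967), had 8349, 4783 and 5464 in sedentary and 83.8, 19.6 and 23.4 in active tumours of week 12. Its week 18 values were 40.2, 805 and 347 in sedentary and 75.9, 1358 and 784 in active tumours.

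Over all 14 fast fibre genes, the ratio of the sedentary to the active mean at week 12 had a median of 122 and ran from 30.3 for Myl1, a fast essential light chain, to 205 for Myoz1, a Z-disc protein. The summed fast level was 132593, 59384 and 92251 in sedentary and 1494, 397 and 674 in active tumours of week 12. At week 18 it was 465, 12303 and 6004 in sedentary and 2534, 15855 and 9472 in active tumours. No week 18 library reached the lowest sedentary library of week 12 for any of the 14. How many of all genes had that order was not computed. Nothing is read from it, because the genes were chosen by their week 12 difference.

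**Figure D2:**
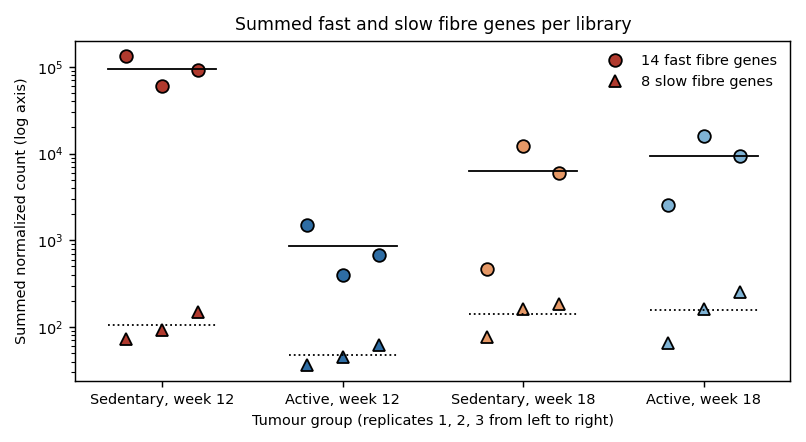
Summed normalized count (log axis) of the 14 fast fibre genes (circles) and the 8 slow fibre genes (triangles) in each tumour library, with solid lines for the group means of the fast sums and dotted lines for those of the slow sums. The fast sums span 397 to 132593, and the slow sums stay between 36.4 and 251.

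The slow isoforms were low in every library and shared this order only in part. For 0 of the 8 were the sedentary libraries of week 12 the 3 highest. Casq2 and Myoz2 were still lower in every active than in every sedentary library of week 12. At week 18, replicate 1 was the lowest active library for each slow gene and the lowest sedentary one for all but Casq2. Myh7, the slow heavy chain (chr14:54970684-54994626, minus strand), had 0, 0 and 3 reads in sedentary and 3, 0 and 5 in active tumours of week 12. Its reads at week 18 were 0, 31 and 87 in sedentary and 3, 16 and 68 in active tumours. The sedentary tumours of week 12, where Myh4 was highest, were thus at the floor of 3 reads for Myh7. The highest Myh7 values were in replicate 3 of both week 18 arms, 86.2 and 60.6 normalized counts.

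Tnni1, the slow inhibitory troponin, had normalized counts of 9.60, 2.11 and 17.8 in sedentary and 3.64, 17.5 and 5.58 in active tumours of week 12. At week 18 Tnni1 had 3.83, 19.2 and 26.8 in sedentary and 10.4, 22.7 and 33.9 in active tumours. All 4 groups overlapped. Tnnt1, the slow troponin T, had 3.60, 14.7 and 14 in sedentary and 0.911, 5.15 and 16.7 in active tumours of week 12, and 4.79, 18.2 and 12.9 in sedentary and 6.24, 19.2 and 20.5 in active tumours of week 18. These are counts of at most 38 reads, so only wide differences would be seen.

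Casq2, the calsequestrin of heart and slow fibres that buffers calcium in the reticulum, was the highest slow fibre gene by its mean over the 12 tumours. It had 36.0, 52.7 and 80.5 normalized counts in sedentary and 23.7, 21.6 and 29.0 in active tumours of week 12. At week 18 Casq2 had 66.1, 37.4 and 19.8 in sedentary and 36.4, 43.7 and 74.0 in active tumours. In sedentary tumours of week 18 its highest value was in replicate 1, where the fast genes were lowest.

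For 6 slow fibre genes (Myh7, the slow light chains Myl2 and Myl3, and the troponins Tnnc1, Tnni1 and Tnnt1) the highest of the 12 libraries was from week 18. Myl3 had no reads in any of the 6 libraries of week 12, and at week 18 it had 0, 27.3 and 7.93 normalized counts in sedentary and 0, 21 and 8.02 in active tumours. Myoz2, a Z-disc protein of slow fibres and heart, was the slow gene most like the fast ones. It had 22.8, 19.0 and 23.4 in sedentary tumours of week 12 and no reads in the 3 active ones, which is at least 7.11-fold lower against the floor of 3 reads in each library. Myl3 and Myoz2 were chosen for this account after their values were seen. The summed slow level was 73.2, 92.7 and 151 in sedentary and 36.4, 45.3 and 61.3 in active tumours of week 12. At week 18 it was 76.6, 161 and 183 in sedentary and 65.5, 161 and 251 in active tumours.

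The promoters of Myh4, Myh1, Acta1 and Myh7 are shown because the first 3 belong to genes of the common pattern and the last to the slow heavy chain that lacked it. They are examples, picked after their matches were seen. Each is the 250 bases before the RefSeq start (GRCm38.p6), at chr11:67237562-67237811, chr11:67199852-67200101 and chr8:123894776-123895025 (minus strand), and for Myh7 at chr14:54994550-54994799 (minus strand). Capitals mark matches on either strand to the E-box CAGCTG, the MCAT motif CATTCC, the TATA motif TATAAA, the MEF2 motif and the CArG box, and matches of MEF2 and TATAAA can overlap.
Myh4: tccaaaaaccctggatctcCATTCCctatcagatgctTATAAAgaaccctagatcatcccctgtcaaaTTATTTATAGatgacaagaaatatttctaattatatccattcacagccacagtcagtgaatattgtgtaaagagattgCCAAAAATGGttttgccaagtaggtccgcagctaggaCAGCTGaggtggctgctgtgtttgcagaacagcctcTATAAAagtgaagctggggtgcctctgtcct
Myh1: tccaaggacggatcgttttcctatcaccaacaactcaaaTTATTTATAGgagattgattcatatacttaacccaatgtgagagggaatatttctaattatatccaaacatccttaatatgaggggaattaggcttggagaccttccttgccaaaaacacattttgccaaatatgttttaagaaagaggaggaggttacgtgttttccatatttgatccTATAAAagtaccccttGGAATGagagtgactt
Acta1: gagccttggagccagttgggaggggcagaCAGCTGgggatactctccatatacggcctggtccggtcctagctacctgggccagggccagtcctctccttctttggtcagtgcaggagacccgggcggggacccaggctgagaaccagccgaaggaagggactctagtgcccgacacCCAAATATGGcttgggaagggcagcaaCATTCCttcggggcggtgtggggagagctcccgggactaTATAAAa
Myh7: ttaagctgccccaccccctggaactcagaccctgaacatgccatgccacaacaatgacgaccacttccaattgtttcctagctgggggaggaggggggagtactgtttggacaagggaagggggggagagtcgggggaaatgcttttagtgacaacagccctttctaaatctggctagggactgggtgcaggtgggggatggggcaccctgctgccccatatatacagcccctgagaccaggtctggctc

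Matches to all 5 motifs were found in the Myh4 window, and none in the Myh7 window, which says only that these letters are not there. Fast genes did not all hold them, since the Myh2, Tnnc2 and Pvalb windows had no match either, and the MEF2 motif was in 2 of 10 fast and 2 of 8 slow promoters. Promoters of 37 of the 50 genes were matched in the RefSeq table, and 10 of them held none of the 5 motifs. CAGCTG was in 17 of them (45.9%), against 12.9% of 27025 promoters of the same length, and CATTCC in 10 (27%), against 12.6%. The MEF2 motif was in 7 (18.9%), against 2.98% of all promoters, the CArG box in 4 (10.8%), against 1.39%, and TATAAA in 6 (16.2%), against 12.9%. A match is a description and not a binding site.

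The heavy chains were also compared as shares of their summed level per base of exon. Myh4 made up 86.6%, 81.3% and 87.5% of the 4 chains in sedentary tumours of week 12. In active tumours of week 12 its share was 64.3%, 75.5% and 62.1%, from only 586, 130 and 120 reads over the 4 chains. At week 18 the Myh4 share was 87.7%, 49.4% and 80.6% in sedentary and 76.9%, 57.5% and 54.7% in active tumours. Myh4 was the leading chain in all 12 libraries, and the lowest share was in sedentary replicate 2 of week 18, where Myh1 made up 42.5%.

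Myh2 made up 1.64% to 2.38% of the chains in sedentary tumours of week 12 and up to 12.6% elsewhere, in active replicate 3 of week 18. Myh7 made up 2.85% in sedentary and 1.75% in active replicate 3 of week 18, and 3.05% in active replicate 3 of week 12, the latter from 5 reads. In sedentary replicates 1 and 2 of week 12, no Myh7 read was found among 40480 and 18090 heavy chain reads. For a count of 0, the exact 95% binomial interval reaches 0.00911% and 0.0204% of these reads, not scaled by exon length.

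**Figure D3:**
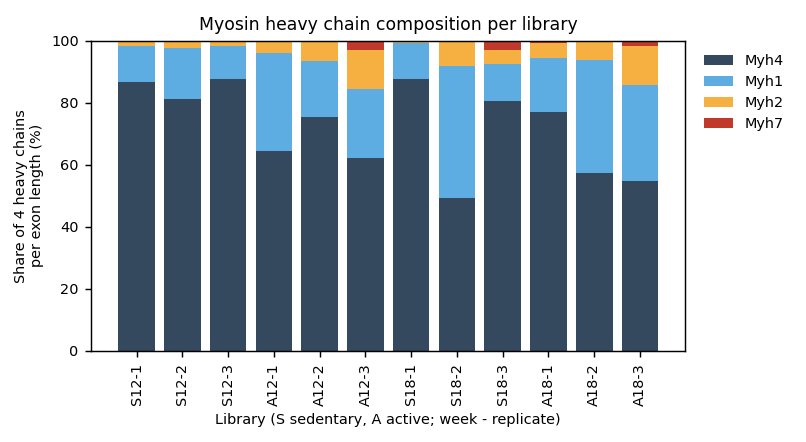
Share (percent, per base of exon) of Myh4, Myh1, Myh2 and Myh7 in the summed level of these 4 myosin heavy chains, stacked for each tumour library. Myh4 is the largest share in every bar, from 49.4% to 87.7%, and Myh7 reaches at most 3.05%.

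The fast to slow balance was summarised as the log2 ratio of the summed fast to the summed slow level per base of exon. It was 11.09, 9.57 and 9.28 in sedentary and 5.27, 3.29 and 3.63 in active tumours of week 12. At week 18 it was 2.93, 6.47 and 5.45 in sedentary (mean 4.95 ± 1.83, SD, n = 3) and 5.08, 6.86 and 5.69 in active tumours (5.88 ± 0.91, SD, n = 3). The difference of 0.93 at week 18 lay within the spread of the libraries (exact two-sided permutation p = 0.5, where 0.1 is the smallest that 3 against 3 allows). Without sedentary replicate 1 the difference was −0.09. Casq2 made up 84.5% of the slow sum in that library and 13.4% in sedentary replicate 3 of week 18.

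The scaffold of the sarcomere, shared by both fibre types, had the same order of groups as the fast genes at week 12. Acta1, the skeletal actin of the thin filament (chr8:123891769-123894751), had normalized counts of 25322, 12463 and 18924 in sedentary and 355, 61.8 and 186 in active tumours of week 12. At week 18 Acta1 had 71.8, 3184 and 1387 in sedentary and 416, 4707 and 4553 in active tumours. Its week 12 means differed by a ratio of 94.0, and at week 18 its active replicates 2 and 3 stood above all sedentary ones while active replicate 1 did not. Per kilobase of exon, Acta1 was the highest of the 50 in sedentary tumours of week 12 (12307 ± 4186, SD, n = 3) and ranked 48th of 18870 genes, and Tnnc2 (7748) ranked 93rd.

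Ttn, the giant spring that spans from Z-disc to M-line (chr2:76703980-76982547), had 10816, 4507 and 7529 normalized counts in sedentary and 169, 31.9 and 252 in active tumours of week 12. Its week 18 values were 57.4, 936 and 503 in sedentary and 67.6, 834 and 560 in active tumours, which are close to each other replicate by replicate. Neb, the ruler of the thin filament (chr2:52136647-52378474), had 4770, 2100 and 3554 in sedentary and 102, 29.9 and 65.8 in active tumours of week 12. At week 18 Neb had 28.7, 511 and 263 in sedentary and 26.0, 490 and 356 in active tumours. For Ttn and Neb the means at week 12 differed by ratios of 50.5 and 52.7.

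Among the 14 sarcomere genes, the week 12 ratio ran from 10.4 to 148 over the 11 with more than 3 reads in some active library of that week, with a median of 57.9. The other 3, the Z-disc protein Myoz3, the thin filament stabiliser Klhl40 and the costamere protein Smpx, had at most 3 reads in each active library of week 12. Their sedentary values of week 12 were 117 to 178 for Myoz3, 102 to 161 for Klhl40 and 161 to 164 normalized counts for Smpx.

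Calcium-handling genes varied more among themselves. Ryr1, the calcium release channel of the reticulum (chr7:29003344-29125179), had 4396, 1752 and 3003 normalized counts in sedentary and 92.0, 34.0 and 56.9 in active tumours of week 12. At week 18 Ryr1 had 44.0, 364 and 224 in sedentary and 40.6, 451 and 210 in active tumours. Cacna1s, the voltage sensor that opens Ryr1 (chr1:136052750-136119822), had 1059, 512 and 868 in sedentary and 18.2, 4.12 and 29.0 in active tumours of week 12. For both genes the groups did not overlap at week 12. At week 18 Cacna1s had 3.83, 134 and 54.5 in sedentary and 11.4, 165 and 117 in active tumours.

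The junctophilins, which hold the reticulum to the transverse tubule, differed least. Jph2 (chr2:163336242-163397993) had 990, 640 and 1284 normalized counts in sedentary and 256, 74.2 and 167 in active tumours of week 12, and 50.7, 351 and 243 in sedentary and 103, 408 and 349 in active tumours of week 18. Its week 12 means differed by a ratio of 5.86. Jph1 had 356, 221 and 328 in sedentary and 77.4, 115 and 90.3 in active tumours of week 12, a ratio of 3.20, the lowest of the 42 genes outside the slow group. At week 18 Jph1 had 81.4, 101 and 107 in sedentary and 95.7, 109 and 136 in active tumours. The 9 libraries outside the sedentary group of week 12 thus held 77.4 to 136 for Jph1, while Myh4 ran from 79.2 to 2202 in the same libraries. Jph1 was singled out after its values were seen.

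Genes of energy metabolism had the same order of groups as the fast genes at week 12. Ckm, the muscle creatine kinase that buffers ATP (chr7:19404776-19422841), had 12876, 6243 and 9192 normalized counts in sedentary and 119, 31.9 and 30.1 in active tumours of week 12, a ratio of 156. At week 18 Ckm had 55.5, 1310 and 593 in sedentary and 157, 2158 and 1128 in active tumours. Active values were higher in each replicate number at week 18, with the arms overlapping. Pygm, the muscle glycogen phosphorylase (chr19:6384399-6398459), had 6582, 2811 and 4908 in sedentary and 116, 34.0 and 114 in active tumours of week 12, and 59.4, 786 and 355 in sedentary and 82.2, 888 and 329 in active tumours of week 18. Eno3, the muscle enolase of glycolysis (chr11:70657202-70662513), had 3998, 2196 and 2776 in sedentary and 129, 80.4 and 448 in active tumours of week 12. Its week 18 values were 72.8, 536 and 228 in sedentary and 108, 930 and 404 in active tumours. The ratio for Eno3 at week 12 was 13.6, the lowest of the 7 metabolism genes, and its highest active value was in replicate 3.

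At week 18, a comparison that did not enter the choice of the genes, limma called 0 of the 50 genes different between active and sedentary tumours at an adjusted p under 0.05. Over all 18939 genes tested, 0% were called, and 5.97% (1131 genes) had an unadjusted p under 0.05, against 0 of the 50. edgeR's quasi-likelihood test called 0 genes and DESeq2 called 52, none of them among the 50. In the authors' deposited table, 0.213% of genes had an adjusted p under 0.05 at week 18 and the smallest adjusted p among the 50 was 0.766. The smallest adjusted p of limma among the 50 was 0.824.

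By direction, 46 of the 50 fitted differences at week 18 lay above 0 (higher in active tumours), with a median of 0.93 on the log2(normalized count + 1) scale beside 0.01 over all genes. The median was 1.19 for the 14 fast genes, all above 0, and 1.16 for the 14 sarcomere genes, of which 12 were above 0. It was 0.38 for the slow genes (7 of 8 above 0), 0.42 for the calcium genes (7 of 7) and 0.99 for the metabolism genes (6 of 7). The 4 genes below 0 were Myl3, Myoz3, the M-line protein Myom1 and the AMP deaminase Ampd1. Signs of small differences depended on the method. The authors' log2 fold changes were also below 0 for Myh4 (−0.05), Myh7 (−0.63), Ttn (−0.03) and Trdn (−0.13), and above 0 for Ampd1 (0.31). The median over the 50 was 0.53 with edgeR and with DESeq2. In 0 of the 50 did the 2 arms stand apart without overlap, against 13.6% of all genes tested. The direction of the median rested on 1 library, since it was −0.27 without sedentary replicate 1.

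Single differences were imprecise, with 95% intervals of median width 7.0 log2 units. Myh4 differed by 0.23 ± 1.39 (SE, limma, interval −3.26 to 3.71, adjusted p = 0.976). Acta1 differed by 1.60 ± 1.72 (SE, interval −2.71 to 5.90, limma adjusted p = 0.851) and Ckm by 1.04 ± 1.51 (SE, interval −2.74 to 4.83, limma adjusted p = 0.885). Klhl41, a stabiliser of nebulin, had the largest difference, 2.03 (interval −3.0 to 7.05). The narrowest interval belonged to Jph1, −0.29 to 0.74 around 0.23.

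Replicates of week 18 that share a number varied together. With the replicate number as a block, 0 of the 50 genes passed an adjusted p of 0.05 in limma (smallest adjusted p 0.573), and 16 (32%) had an unadjusted p under 0.05, all higher in active tumours, against 7.41% of all genes. Tnnc2, for example, differed by 0.94 with a standard error of 0.18 in the blocked fit and of 1.54 without the block. Its limma adjusted p with the block was 0.573. The labels do not pair the libraries, and the pairing was inferred from these same week 18 values. The muscle genes also vary together, so the 16 are not separate results. Nothing is read from their share.

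**Figure D4:**
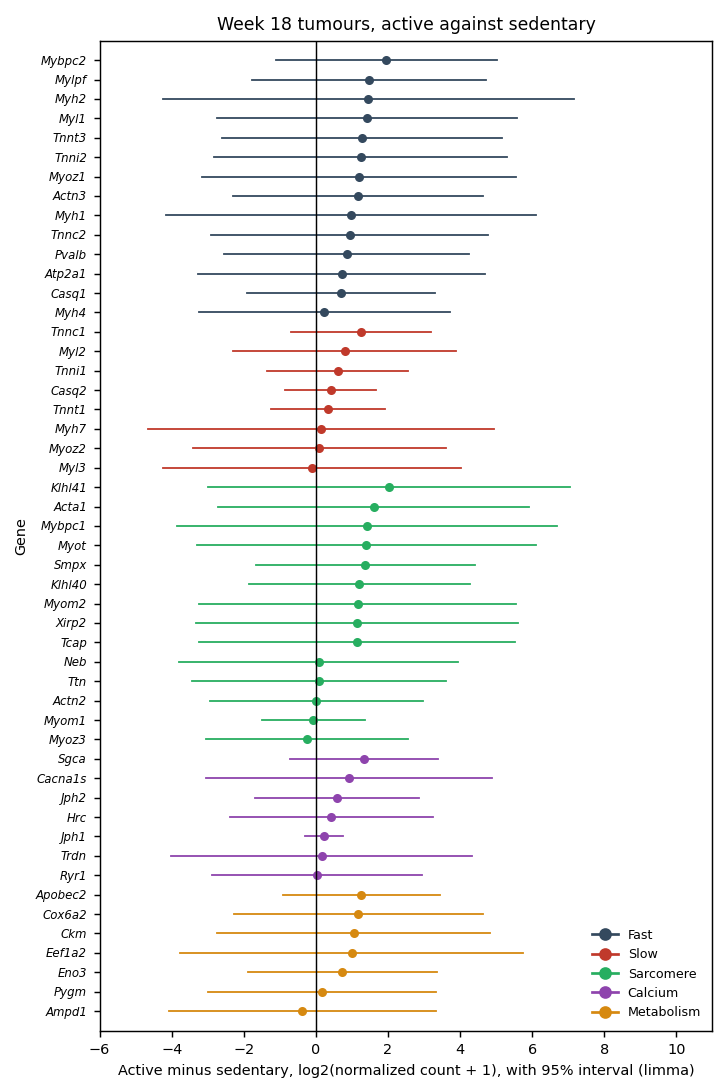
Fitted difference between active and sedentary tumours of week 18 for each of the 50 genes (points, log2(normalized count + 1) scale) with its 95% interval from limma, coloured by role. Of the 50 points, 46 lie right of 0, and every interval includes 0.

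The genes did not scale by a single factor. As percent of the sedentary mean of week 12, the median over the 42 genes outside the slow group was 2.18%, 0.457% and 1.30% in active tumours of week 12. At week 18 it was 0.620%, 16.5% and 6.47% in sedentary and 1.71%, 22.2% and 12.8% in active tumours. Myh4 was the lowest of the 42 in sedentary replicate 2 (7.24%) and in active replicates 2 (7.65%) and 3 (4.59%) of week 18. Myh2, in contrast, was the highest in sedentary replicate 2 (52.9%) and in active replicate 3 (49.5%). Relatively more Myh2 than Myh4 was not particular to the libraries with the most muscle RNA. In active tumours of week 12 Myh2 stood at 3.13%, 1.42% and 2.61%, against 1.16%, 0.343% and 0.275% for Myh4. In active replicate 1 of week 18 the values were 2.43% and 0.834%. Sedentary replicate 1 of week 18 went the other way, with 0.132% for Myh2, from 1 read, and 0.426% for Myh4.

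Active replicate 1 of week 18 had its own order. There Sgca, the alpha-sarcoglycan of the fibre membrane, stood at 54.3% of the sedentary mean of week 12, Apobec2, a muscle-enriched member of the APOBEC family, at 41.1% and Mybpc2, the fast myosin-binding protein C, at 34.3%, beside the median of 1.71%. Mybpc2 had 26.8, 444 and 460 normalized counts in sedentary and 1310, 656 and 388 in active tumours of week 18. Replicate 1 was thus the highest active library for Mybpc2 and the lowest for 47 of the 50 genes. Apobec2 had 68.9, 90.1 and 18.8 in sedentary and 263, 144 and 43.7 in active tumours of week 18. Sgca had 3.83, 24.3 and 4.96 in sedentary and 42.7, 23.6 and 9.80 in active tumours of week 18. These 3 genes were picked after their values were seen.

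**Figure D5:**
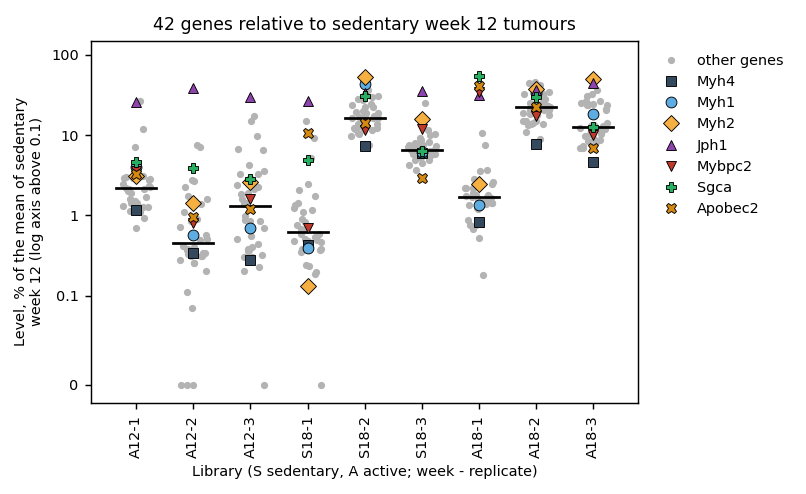
Level of the 42 genes outside the slow group in each of the 9 libraries other than sedentary week 12, as percent of the sedentary mean of week 12 (log axis above 0.1, linear below), with black lines for the medians, grey points for single genes and symbols for the 7 named genes. The medians run from 0.457% to 22.2%, Jph1 lies high in the active libraries of week 12, and Sgca, Apobec2 and Mybpc2 lie high in active replicate 1 of week 18.

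Across the 12 libraries, the level of each of the 42 genes tracked the mean over the 50, with Pearson correlations from 0.766 for Apobec2 and a median of 0.976. For 7 of the 8 slow genes the correlation ran from 0.13 to 0.45, and for Myoz2 it was 0.94. The libraries are shared by all genes, and the mean includes each gene, so these values are descriptions. Among 13600 genes outside the set with a mean of at least 50, those most like the mean were Nrap (0.995), Mypn (0.988), Pgam2 (0.986), Sypl2 (0.984), Ckmt2 (0.984), Tmod4 (0.982), 3425401B19Rik (0.982), Myo18b (0.975), Rpl3l (0.973) and Jsrp1 (0.972). Nrap, a nebulin-related anchoring protein, had 1064, 684 and 926 normalized counts in sedentary and 33.7, 9.27 and 27.9 in active tumours of week 12.

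A wider list of 48 other muscle fibre genes held 27 with the 3 sedentary libraries of week 12 highest, a share not computed over all genes. This list, too, was drawn up with results of these data known, so its week 12 values are a description. At week 12, 47 of the 48 fitted differences lay below 0 (lower in active tumours), with a median of −3.43. At week 18, limma called 0 of the 48 (1 at an unadjusted p under 0.05), 31 lay above 0 and 17 below, and the median was 0.25. Ldb3, Cmya5, Srl and Tmem38a were among the 5 of highest mean. Ldb3, a Z-disc protein also made outside skeletal muscle, had 1715, 1568 and 2217 normalized counts in sedentary and 1173, 1216 and 560 in active tumours of week 12.

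Of 9 myogenic and satellite cell factors, 4 were listed. Myf6, the myogenic factor of mature fibres, had 40.8, 69.6 and 62.7 normalized counts in sedentary tumours of week 12, no reads in the 3 active ones, 0.957, 23.3 and 3.97 in sedentary and 0, 8.74 and 22.3 in active tumours of week 18. For Myf6 and Myod1 the sedentary libraries of week 12 were the 3 highest, and for Myog and Cdh15 they were not. Myog was highest in active replicate 3 of week 18 (8.91). Cdh15 had 12.6 in sedentary replicate 2 of week 12, against 15.2 in sedentary replicate 2 of week 18. Of 8 heart genes, Tnnt2, Tnni3 and Myl4 were listed, with summed levels of 203 to 237 in sedentary and 66.5 to 204 in active tumours of week 12, and of 123 to 165 in sedentary and 63.5 to 104 in active tumours of week 18. These spans are narrow beside those of the fast genes.

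Genes of other cell types had other orders of libraries. All 12 genes of the smooth muscle and myoepithelium list were listed, at summed levels of 16509 to 40176 in sedentary and 11655 to 26293 in active tumours of week 12, and of 26266 to 31085 in sedentary and 20509 to 26481 in active tumours of week 18. Des, the desmin on that list that skeletal muscle also expresses, had 3434, 2075 and 2482 in sedentary and 172, 97.9 and 785 in active tumours of week 12. All 12 adipocyte genes were listed and none was at 0 reads in a library. Their summed level was 41946 to 57908 in sedentary and 21541 to 539681 in active tumours of week 12. It was 2008 to 41563 in sedentary and 1310 to 7163 in active tumours of week 18. Both replicates numbered 1 at week 18 were the lowest for adipocyte genes as well as for 44 of the 50 muscle genes. The share of all genes with that order was not computed. The part of these cell types in the muscle gene differences was not tested.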

How the data were processed

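RNA-seq of 12 mammary tumours was used. Per the labels' protocols, RNA was extracted with TRIzol and the library kit kept strand. The build was mm10, per the submitters' processing notes. The aligner, the counter, the annotation and the use of strand in counting are not given in the sources used here, so overlapping genes could share reads. Per the file headers, the authors' deposited tables come from DEBrowser and hold a normalized signal (count divided by a factor per library), a p-value and adjusted p-value, a log2 fold change, a linear fold ratio, a −log10 of the adjusted p-value, and a test statistic (score) per gene. Whole reads were recovered for 100% of values (tolerance 0.01), and the tables list 19241 genes, each with at least 10 reads in some tumour.

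limma 3.58.1 in R 4.3.3 was fitted to log2(value + 1) keeping genes whose mean reached 1 in the sedentary or the active group, with Benjamini-Hochberg adjustment over all genes tested and a threshold of 0.05. Differences on this scale understate changes of low genes. Because the deposited unit was a normalized value, limma was the main test, and edgeR 4.0.16 and DESeq2 1.42.0 on recovered reads were alternatives. Other alternatives were the pseudocount, the filter, TMM scaling, a replicate block and each library left out. A floor is 3 reads. The week 18 replicate numbers were taken to pair the libraries, since deviations from the group means correlated at 0.164, 0.159 and 0.139 between libraries of the same number, and at week 12 they did not (−0.03, −0.10 and 0.09). Exon lengths and gene positions are from GENCODE M21 (GRCm38), matched by symbol for 18870 genes, and promoters from RefSeq GRCm38.p6. An exon length is the merged length of all annotated exons of a gene, 8616 bases for Myh7 and 6016 for Myh4. Their longest coding transcripts have 6230 and 6016 bases, so this length sets Myh7 lower relative to Myh4 than the transcript length would.

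Members and lists were chosen with earlier results of these data known. Per library values are given for the 3 genes of highest mean in each role (4 for fast and slow), the 4 heavy chains, and any gene called at week 18. Named genes outside the set are the 10 most correlated and the 5 most abundant other fibre genes, of which 1 is not reported here. A week-to-week difference was not tested, because the week 12 libraries chose the members.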

Additional observations from a re-analysis of the deposited data

How the results depend on the processing

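At week 18 limma called 0 genes in all, and the count was 5 with a pseudocount of 0.1, 1 without the filter on low values, 52 with DESeq2, and 0 to 5 with each library left out in turn. Of the 50 muscle genes, 0 were called at week 18 under every alternative run. Their median difference at week 18 ran from −0.27 to 1.74 with each library left out, and −0.27 was without sedentary replicate 1. At week 12 limma called 99 genes, against 208 with DESeq2, 0 with the replicate block, and 9 to 71 with each library left out. Of the muscle genes, 33 were called at week 12, against 0 with the replicate block and 2 to 32 with each library left out, with a median difference of −6.24 to −5.44. These week 12 calls are on the contrast that chose the genes, so they say nothing about stability. The fast to slow log2 ratio differed at week 18 by −0.09 to 1.69 with each library left out, and by 0.45 (exact permutation p = 0.5) without Casq2, an alternative chosen after seeing the data. No scaling moved the median of all genes by over 0.1 on the log2 scale. Genes at a few reads, such as Myh7 at week 12, are limited by counting.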
